A study of Mus musculus with 24 samples.

Results

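The complement system was described here through 10 genes that encode its components and receptors: C1qa, C1qb, C1qc, C3, C4b, C3ar1, C5ar1, Itgam, Itgb2 and Serping1. They were picked by gene symbol and are 10 of the 54532 rows of the deposited read-count table. All 10 passed the filter on low counts, which left 19667 genes for testing. The libraries came from the striatum of C57BL/6 mice, 6 animals per genotype with 3 males (replicates 1 to 3) and 3 females (replicates 4 to 6) in each. WT animals carried neither allele. TyrobpKO animals carried a deletion of Tyrobp, which encodes an adaptor of microglial surface receptors. Q175 animals were heterozygous for the Q175 allele, which places a long CAG repeat in mouse Htt to model Huntington's disease, and Q175_TyrobpKO animals carried the same heterozygous allele together with the deletion. The labels give no age. Animal numbers of both genotypes with the deletion began with a prefix that no other animal had, so whatever that prefix marks cannot be told apart from the deletion. A different prefix marked the Q175 animals and WT replicate 3, and 5 WT animals had a further one.

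Complement is a cascade of plasma and tissue proteins that tags surfaces for removal. C1q, built from the products of C1qa, C1qb and C1qc, recognises targets and starts the classical pathway, which cleaves C4 and then C3. Fragments of C3 left on a surface are bound by complement receptor CR3, the heterodimer of the Itgam and Itgb2 products, and small released fragments signal through the receptors encoded by C3ar1 and C5ar1. Serping1 encodes the inhibitor of the C1 proteases. In brain, microglia are the main source of C1q and of these receptors, astrocytes are a source of C4 and C3, and the pathway is known for its part in the removal of synapses.

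The C1q genes lie next to each other on the minus strand of chromosome 4, within 18.675 kb, in the order C1qb, C1qc and C1qa. Coordinates are those of the deposited table, which match the mouse build GRCm38. C1qb (ENSMUSG00000036905) spans chr4:136880129-136886187, C1qc (ENSMUSG00000036896) chr4:136889804-136893065 and C1qa (ENSMUSG00000036887) chr4:136895917-136898803, with 3616 bases between C1qb and C1qc and 2851 bases between C1qc and C1qa. The sequences upstream of the start sites of C1qb and C1qc are shown because C1qb was the member that passed the test for the loss of Tyrobp and because the C1q genes varied together between animals. They come from RefSeq (build GRCm38.p6, minus strand, written 5′ to 3′). The C1qb stretch is chr4:136886201-136886450, and the C1qc stretch, chr4:136893066-136893164, is the part of the upstream window outside the deposited gene model. Capitals mark the ETS core AGGAAGT, here read on the opposite strand as ACTTCCT, and in C1qc the longer PU.1 motif GAGGAAGT that contains it, read as ACTTCCTC.
C1qb: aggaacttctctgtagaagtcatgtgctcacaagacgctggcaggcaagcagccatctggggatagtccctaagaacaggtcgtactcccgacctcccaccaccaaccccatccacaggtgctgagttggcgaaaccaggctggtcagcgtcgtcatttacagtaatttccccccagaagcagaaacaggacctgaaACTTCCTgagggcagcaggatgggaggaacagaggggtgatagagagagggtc
C1qc: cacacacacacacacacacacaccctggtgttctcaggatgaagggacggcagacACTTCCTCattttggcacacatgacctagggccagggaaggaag

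RefSeq windows of 250 bases upstream of the start were matched for 6 of the 10 genes (C1qb, C1qc, C3, C3ar1, C5ar1 and Itgam) and searched on both strands. The match began 53 bases before the start in C1qb and 195 bases before it in C1qc. The ETS core was present in 3 of the 6 windows (C1qb, C1qc and C5ar1) and in 7.69% of all 32851 windows. The deposited gene model of C5ar1 reaches into its window, and the C5ar1 matches lay inside that model. GAGGAAGT was present in C1qc and in 2.44% of all windows. TTGCNNAA, a C/EBP motif, was found in C3 (9.56% of all windows), and an NF-kB motif, GGG followed after 2 bases by TTTCC, and TGANTCA, an AP-1 motif, were found in C3ar1 (1.41% and 6.75%). An IRF motif, GAAA followed after 2 bases by GAAA, and TTCNNNGAA, a STAT motif, matched none of the 6 windows (2.98% and 7.02% of all).

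The remaining members lie apart from each other. C4b and C3 are on chromosome 17 (chr17:34728380-34743882 and chr17:57203970-57228136), C3ar1 on chromosome 6 (chr6:122847138-122856161), Itgb2 on chromosome 10 (chr10:77530252-77565708) and Serping1 on chromosome 2 (chr2:84765387-84775444). C5ar1 (chr7:16246743-16259540) and Itgam (chr7:128062640-128118491) share chromosome 7 with Tyrobp, at distances of 14.2 Mb and 97.6 Mb.

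Libraries held 25.5 to 34.6 M counts. Tyrobp, the deleted gene, stood at 0.214 to 0.448 CPM (reads scaled to library size with TMM factors) in the 12 libraries of the deletion and at 5.69 to 11.8 CPM in the other 12, and Htt was lower in carriers of Q175 by 0.46 on the log2 scale (log2 fold change -0.46 ± 0.06 SE, edgeR adjusted p = 3.02e-06, Q175 against WT). All 10 markers of striatal projection neurons were present in every genotype, with a summed level of 3824 to 10771 CPM. Some libraries stood apart for the members. Q175 replicate 1 had the lowest value of its genotype for 8 of the 10 genes, TyrobpKO replicate 5 the highest for 7 and Q175_TyrobpKO replicate 6 the highest for 6. Q175 replicate 3 had 4097 CPM of 6 choroid plexus markers, against 24.98 to 584.2 CPM in the other 23 libraries. In these bulk samples, fewer cells of a type and less RNA per cell cannot be told apart.

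Per kilobase of gene length, the C1q genes had the highest mean levels in WT. Mean levels in WT were 43.2 CPM per kb for C1qa, 39.9 for C1qb and 16.1 for C1qc, followed by C4b at 12.5. The receptor subunits Itgb2 and Itgam had 2.42 and 1.57 CPM per kb. Serping1 (0.928), C3ar1 (0.583), C3 (0.410) and C5ar1 (0.290) lay below 1 CPM per kb. The ranges of neighbours in this order overlapped for C1qa and C1qb, C1qc and C4b, C3ar1 and C3, and C3 and C5ar1, and did not overlap for C1qb and C1qc, C4b and Itgb2, Itgb2 and Itgam, Itgam and Serping1, and Serping1 and C3ar1. The order of the first 4 genes was the same in the means of TyrobpKO, while in Q175 C4b (17.5 ± 5.57 SD, n = 6) and C1qc (16.6 ± 2.75 SD, n = 6) changed places within their spread. C5ar1 was the thinnest measurement, with 96 reads over the 6 Q175 libraries and 144 over the 6 TyrobpKO libraries.

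**Figure D1:**
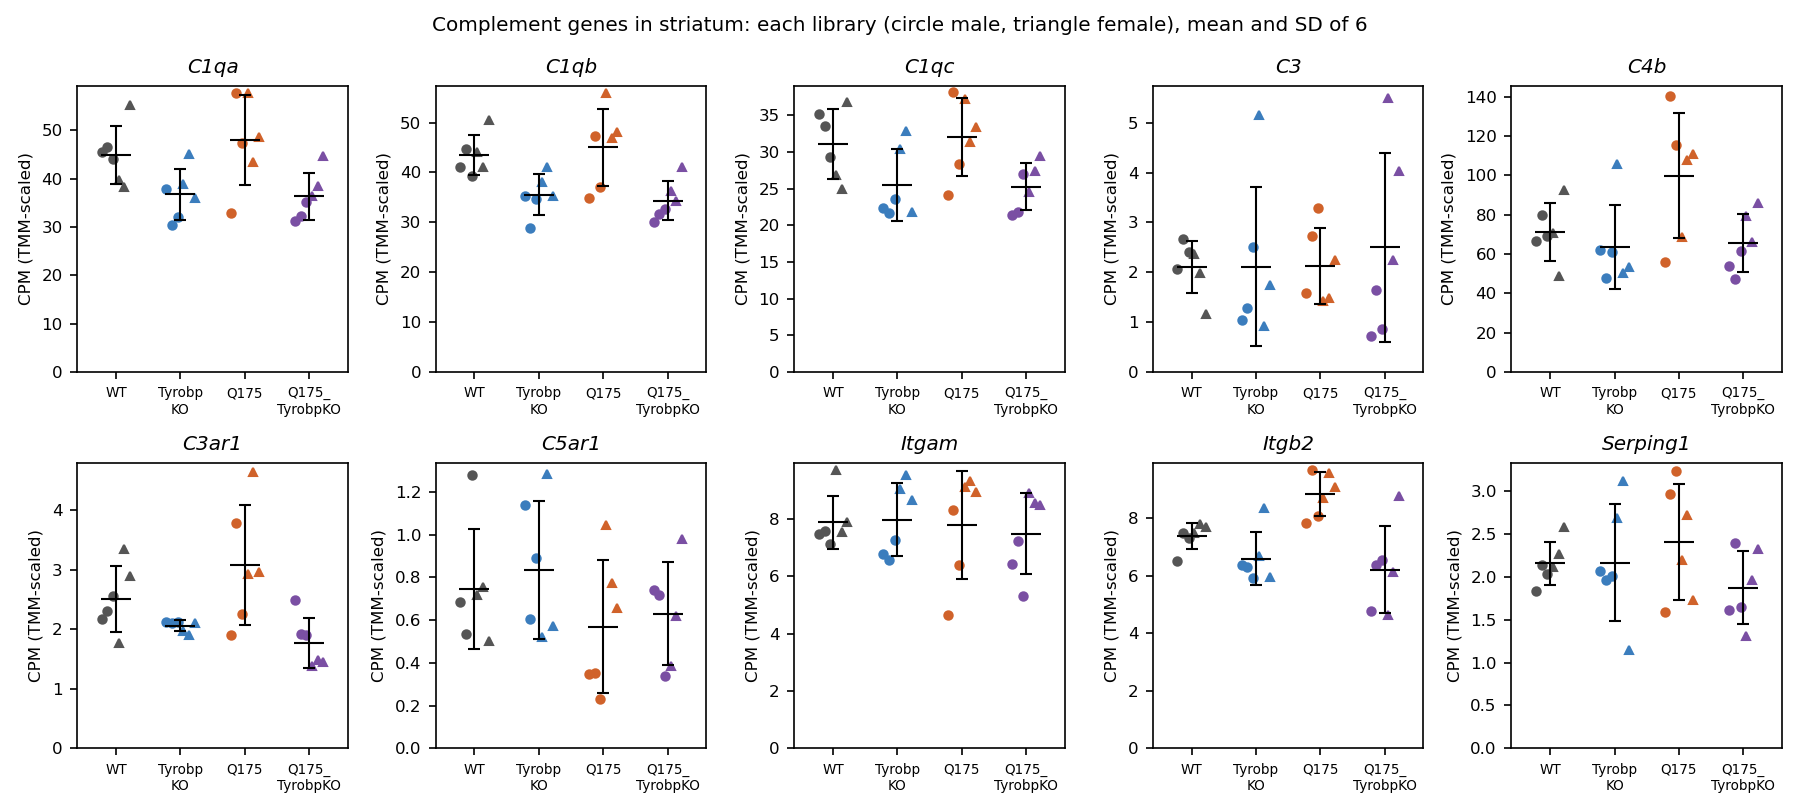
Level of each of the 10 genes (CPM, TMM-scaled, vertical axes from 0) in the 24 libraries by genotype; circles are males, triangles are females, and bars give the mean and SD of 6 libraries. The means of the C1q genes sit lower in both genotypes with the Tyrobp deletion, and Itgb2 is the gene whose Q175 libraries all lie above the WT libraries.

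The mean levels of all C1q genes were lower where Tyrobp was deleted, on either Htt background, and C1qb was the gene of them that passed the test. C1qb, the B chain, read 39.2, 42.6 and 50.5 CPM (lowest, median, highest of 6 libraries) for WT, 28.8, 35.3 and 41.2 for TyrobpKO, 34.8, 47.0 and 56.0 for Q175, and 29.99, 33.5 and 41.1 for Q175_TyrobpKO. All but 1 of the TyrobpKO libraries lay below every WT library, and 4 of 6 Q175_TyrobpKO libraries lay below every Q175 library. In Q175_TyrobpKO against Q175, C1qb fell by 0.39 on the log2 scale (SE 0.08, a level of 0.765 times, edgeR's quasi-likelihood test, adjusted p = 0.0221). It was the only member called in that comparison, 1 of 10, where 0.158% of all tested genes were called and 0.112% were called lower. The call rests on the fit: it was lost without the sex term (adjusted p = 0.197), with only the 12 libraries of the contrast (adjusted p = 0.0958), and without any of 7 single libraries (edgeR adjusted p up to 0.112), these being Q175 replicates 2, 4 and 6 and Q175_TyrobpKO replicates 1, 2, 4 and 5. The fold change itself stayed between -0.43 and -0.34 when each library was left out.

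C1qa, the A chain, read 38.3, 44.8 and 55.2 CPM for WT, 30.5, 37.0 and 45.1 for TyrobpKO, 32.9, 48.0 and 57.8 for Q175 and 31.3, 35.7 and 44.7 for Q175_TyrobpKO. C1qc, the C chain, read 24.9, 31.5 and 36.8 CPM for WT, 21.7, 22.99 and 32.9 for TyrobpKO, 24.2, 32.3 and 38.1 for Q175 and 21.3, 25.7 and 29.4 for Q175_TyrobpKO. Groups overlapped for both genes. For each of them 4 of 6 TyrobpKO libraries lay below every WT library and 2 of 6 Q175_TyrobpKO libraries below every Q175 library. With the deletion on the Q175 background the log2 fold change was -0.40 ± 0.11 (SE) for C1qa (edgeR adjusted p = 0.374) and -0.35 ± 0.12 for C1qc (adjusted p = 0.693), so neither was called. Without Q175 replicate 1, the library low for most members, C1qa passed (log2 fold change -0.48, edgeR adjusted p = 0.0381) and so did C3ar1, giving 3 members called in place of 1.

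On the WT background the C1q means were also lower with the deletion. The log2 fold changes in TyrobpKO against WT were -0.30 ± 0.11 (SE) for C1qa, -0.29 ± 0.08 for C1qb and -0.30 ± 0.12 for C1qc. With edgeR none of the 10 members was called there, where 0.117% of all tested genes were, and the adjusted p of C1qb was 0.428. No member was called by DESeq2 or under any other alternative fit either, and 3 members (the C1q genes) had an unadjusted edgeR p under 0.05 in that comparison, among 1269 of the 19667 genes. In Q175_TyrobpKO against WT, C1qb fell by 0.34 (SE 0.08, edgeR adjusted p = 0.00417), the 1 member called in that contrast, in which 9.44% of genes were called and 5.54% were called lower. This call remained in every alternative fit. C1qa passed as well with only the 12 libraries of the contrast (edgeR adjusted p = 0.0475), and 3 members passed without WT replicate 5 (C1qa, C1qb and C1qc). Besides C1qb, C1qa passed without Q175 replicate 1 (edgeR adjusted p = 0.0457) and Itgb2 without Q175_TyrobpKO replicate 6 (0.0417). C1qa (log2 fold change -0.31 ± 0.11 SE, adjusted p = 0.0915) and C1qc (-0.31 ± 0.12, adjusted p = 0.116) did not pass in edgeR with all libraries.

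The effect of the deletion averaged over both Htt backgrounds was tested as well, a contrast added after the values above had been seen. C1qb fell by 0.34 (SE 0.05, edgeR adjusted p = 0.000954), with 1 of 10 members called beside 0.208% of all genes (0.142% lower), and it passed in every alternative fit (edgeR adjusted p up to 0.0239 without the sex term). Other log2 fold changes were -0.35 ± 0.08 (SE) for C1qa (edgeR adjusted p = 0.0903), -0.32 ± 0.09 for C1qc (0.188), -0.54 ± 0.14 for C3ar1 (0.175), -0.34 ± 0.08 for Itgb2 (0.141) and -0.40 ± 0.16 for C4b (0.509). Those of Serping1 (-0.18 ± 0.15) and Itgam (-0.02 ± 0.08) were negative too, and those of C3 (0.02 ± 0.33) and C5ar1 (0.18 ± 0.25) were positive. DESeq2 called 5 members in this contrast: C1qa, C1qb, C1qc, C3ar1 and Itgb2. Leaving out single libraries gave 1 or 2 members. C1qa passed beside C1qb without WT replicate 5, TyrobpKO replicate 5 or Q175 replicate 1, and Itgb2 did so without Q175_TyrobpKO replicate 6 (log2 fold change -0.39, edgeR adjusted p = 0.0154). Whether the effect of the deletion differed between the Htt backgrounds was tested by the interaction. No gene passed it in edgeR, with 707 genes at an unadjusted p under 0.05 and 2 genes called by DESeq2, and the interaction was -0.11 ± 0.16 (SE) for C1qa, -0.10 ± 0.11 for C1qb and -0.05 ± 0.17 for C1qc.

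With the Q175 allele alone, the C1q genes gave log2 fold changes of 0.09 for C1qa (95% interval -0.15 to 0.33), 0.04 for C1qb (-0.12 to 0.20) and 0.04 for C1qc (-0.21 to 0.29) in Q175 against WT. None of the 10 members was called in that comparison by edgeR or by DESeq2, where edgeR called 9.63% of all genes, and 2 members (C4b and Itgb2) had an unadjusted p under 0.05, as had 4448 of the 19667 genes. With the deletion on both sides, Q175_TyrobpKO against TyrobpKO, again 0 of 10 members were called by either tool, beside 5.86% of all genes in edgeR. The members' log2 fold changes there ran from -0.41 for C5ar1 to 0.19 for C3, and none had an unadjusted p under 0.05.

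**Figure D2:**
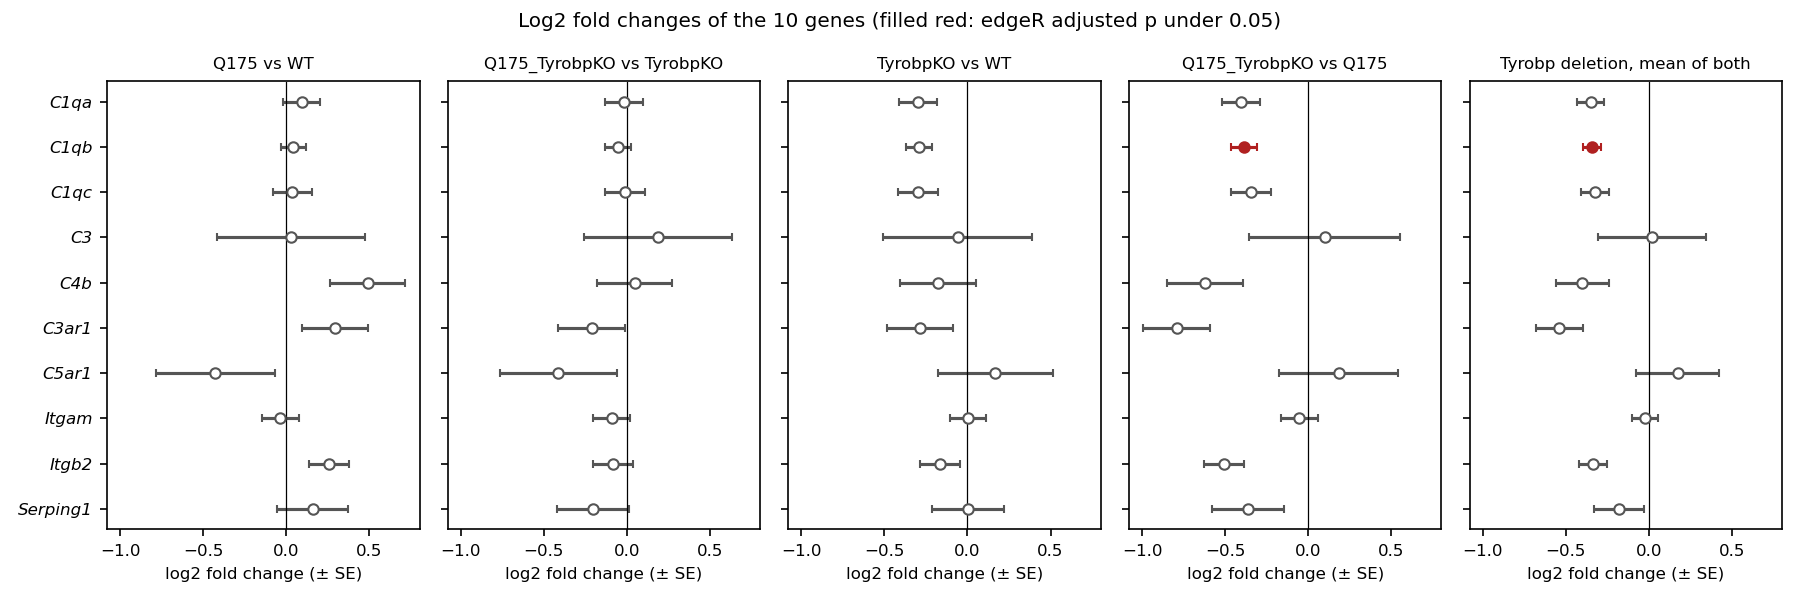
Log2 fold change with its SE (horizontal axis, edgeR) of the 10 genes in 4 genotype contrasts and for the Tyrobp deletion averaged over both Htt backgrounds; filled red points have an adjusted p under 0.05. C1qb is the filled point in the 2 panels in which a member passed, and the C1q genes, C3ar1, C4b and Itgb2 lie left of 0 in all 3 panels of the deletion.

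C4b encodes C4, which is cleaved by the C1 proteases. It read 48.6, 69.99 and 92.7 CPM (lowest, median, highest) for WT, 47.7, 57.3 and 105.6 for TyrobpKO, 55.7, 109.5 and 140.6 for Q175 and 47.4, 63.8 and 86.0 for Q175_TyrobpKO. In Q175, 4 of 6 libraries lay above every WT library, while replicates 1 and 4 lay within the WT range. The mean was 99.9 ± 31.7 CPM (SD, n = 6) in Q175 and 71.2 ± 14.6 in WT, a log2 fold change of 0.49 ± 0.23 (SE) that did not pass (edgeR adjusted p = 0.203). Against Q175, the log2 fold change in Q175_TyrobpKO was -0.62 ± 0.23 (SE, edgeR adjusted p = 0.746). The summed level of 10 reactive astrocyte markers was 219.5 to 330.2 CPM in Q175 and 125.8 to 210.7 in Q175_TyrobpKO. It was 148.3 to 224.3 CPM in WT and 139.3 to 219.8 in TyrobpKO, and its part in the C4b values was not tested. Reads of C4b and of its near-identical neighbour C4a may have been divided between them in counting, so the values of both are uncertain.

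C3, the component on which all pathways meet, had few reads (348 to 409 over the 6 libraries of a genotype). Its mean was 2.11 ± 0.53 CPM (SD, n = 6) for WT, 2.11 ± 1.60 for TyrobpKO, 2.13 ± 0.77 for Q175 and 2.50 ± 1.90 for Q175_TyrobpKO. The spread was wide in both genotypes with the deletion, from 0.918 to 5.15 CPM in TyrobpKO and from 0.711 to 5.49 CPM in Q175_TyrobpKO, and the log2 fold changes had an SE of 0.45 to 0.46. Its value in Q175 against WT was 0.03, or -0.20 without Q175 replicate 3, the library with the high choroid plexus markers.

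Serping1, the inhibitor of the C1 proteases, stood at 2.16 ± 0.25 CPM (SD, n = 6) for WT, 2.17 ± 0.68 for TyrobpKO, 2.41 ± 0.67 for Q175 and 1.88 ± 0.43 for Q175_TyrobpKO. All groups overlapped. Against WT, Q175 gave a log2 fold change of 0.16 ± 0.21 (SE), and the value was -0.36 ± 0.22 in Q175_TyrobpKO against Q175 (edgeR adjusted p = 0.846). Its highest Q175 library was also replicate 3, and without it these values were 0.05 and -0.25.

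Among the receptors, Itgb2 and C3ar1 had a lower mean in Q175_TyrobpKO than in Q175, and neither passed the test. Itgb2, the shared beta chain of the leukocyte integrins, read 6.52, 7.50 and 7.81 CPM (lowest, median, highest) for WT, 5.92, 6.34 and 8.37 for TyrobpKO, 7.83, 8.90 and 9.69 for Q175 and 4.65, 6.26 and 8.79 for Q175_TyrobpKO. Every Q175 library lay above every WT library, which among the 10 members held only for Itgb2 and among all tested genes for 4.08%. The log2 fold change of 0.26 ± 0.12 (SE) did not pass the test (edgeR adjusted p = 0.190). Of the Q175_TyrobpKO libraries, 5 of 6 lay below every Q175 library, all but replicate 6, and the log2 fold change was -0.51 ± 0.12 (SE, edgeR adjusted p = 0.106). Without Q175_TyrobpKO replicate 6 it was -0.62 and passed (edgeR adjusted p = 0.00766).

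C3ar1, the anaphylatoxin receptor for the C3 fragment, had the lowest log2 fold change of the members in Q175_TyrobpKO against Q175, -0.79 ± 0.20 (SE), which did not pass (edgeR adjusted p = 0.199). It read 1.77, 2.44 and 3.35 CPM for WT, 1.91, 2.10 and 2.13 for TyrobpKO, 1.90, 2.95 and 4.64 for Q175 and 1.38, 1.70 and 2.49 for Q175_TyrobpKO. The TyrobpKO libraries were close to each other and the Q175 libraries were spread widely, and 3 of 6 Q175_TyrobpKO libraries, the females, lay below every Q175 library. Without Q175 replicate 1 the log2 fold change was -0.91 and passed (edgeR adjusted p = 0.0383). DESeq2 called C3ar1 (adjusted p = 0.0476) and Itgb2 (adjusted p = 0.0155) beside C1qb in this contrast. The interaction was -0.51 ± 0.28 for C3ar1, -0.34 ± 0.17 for Itgb2 and -0.44 ± 0.32 for C4b (SE, edgeR adjusted p = 0.999 for each), and that of C4b was -0.24 without TyrobpKO replicate 4, its highest TyrobpKO library.

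The mean of Itgam, the alpha chain that pairs with Itgb2 in CR3, was 7.89 ± 0.93 CPM (SD, n = 6) for WT, 7.98 ± 1.27 for TyrobpKO, 7.79 ± 1.87 for Q175 and 7.50 ± 1.42 for Q175_TyrobpKO. For Q175 against WT its log2 fold change was -0.04 (95% interval -0.27 to 0.20), and it was -0.05 in Q175_TyrobpKO against Q175 (-0.28 to 0.18). C5ar1, the other anaphylatoxin receptor, stood at 0.746 ± 0.281 CPM for WT, 0.835 ± 0.322 for TyrobpKO, 0.568 ± 0.311 for Q175 and 0.630 ± 0.241 for Q175_TyrobpKO. Its log2 fold changes had an SE of 0.35 to 0.36 and ran from -0.43 (Q175 against WT) to 0.18 (Q175_TyrobpKO against Q175). None was called, and changes of this size could not be told from no change with such an SE. Single libraries moved them, from -0.66 without Q175 replicate 4 to -0.17 without WT replicate 3 in the first contrast, and from 0.015 without Q175 replicate 3 to 0.42 without Q175 replicate 4 in the second.

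Microglial markers were set beside the members. The summed level of 14 markers of microglia was 408.1 to 473.8 CPM for WT, 345.4 to 475.8 for TyrobpKO, 421.9 to 484.2 for Q175 and 378.0 to 439.6 for Q175_TyrobpKO. In Q175_TyrobpKO against Q175 all 14 markers had a negative log2 fold change and none was called by edgeR, with a median of -0.21, beside a median of -0.37 for the 10 members and -0.00135 for all genes tested. Reads of each of 7 members expressed by microglia (C1qa, C1qb, C1qc, C3ar1, C5ar1, Itgam and Itgb2) were divided by the summed reads of the 14 markers in the same library. C1qb then made up 9.69% ± 0.76 (SD, n = 6) of that sum for WT, 8.37% ± 0.30 for TyrobpKO, 9.70% ± 1.36 for Q175 and 8.59% ± 0.83 for Q175_TyrobpKO. None of the 28 comparisons of this ratio (7 members in 4 contrasts) passed a 2-sided exact permutation test over the 924 splits of 12 libraries after adjustment. The smallest p this design allows is 0.00216, and a single comparison at that p would not pass after adjustment over 28 tests. The test therefore could not show a change confined to a single member and contrast, and it took no account of sex.

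The ratio difference of smallest p was that of C1qb in TyrobpKO against WT, -0.21 on the log2 scale (exact permutation p = 0.00649, adjusted 0.121). For Itgb2 the ratio was 0.21 higher in Q175 than in WT on the log2 scale (exact permutation p = 0.00866, adjusted 0.121) and the difference was -0.32 in Q175_TyrobpKO against Q175 (exact permutation p = 0.0152, adjusted 0.141). C3ar1 gave -0.55 in the latter contrast (exact permutation p = 0.0411, adjusted 0.230), and C1qb gave -0.17 (exact permutation p = 0.132, adjusted 0.528). Before division the log2 fold change of C1qb there was -0.39. Markers of blood cells were low. The summed level of 10 neutrophil and monocyte markers was 0.110 to 3.59 CPM over all libraries, with Ly6g, a defining neutrophil gene, at 0 reads in every genotype. Of these markers 1 had enough reads to be tested, S100a9, and it was called higher in Q175 against WT. The summed level of 6 markers of border macrophages was 11.1 to 22.6 CPM. Of 14 genes of disease-associated microglia, 5 (Ccl6, Clec7a, Cst7, Ctsd and Lyz2) were called higher in Q175 against WT, where 9.63% of all genes were called in either direction. In the same list Clec7a, Cst7, Lyz2 and Trem2 were called lower in Q175_TyrobpKO against Q175, where 0.112% of all genes were called lower. C1qb fell in that contrast too, and the part of these genes in its fall was not tested.

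**Figure D3:**
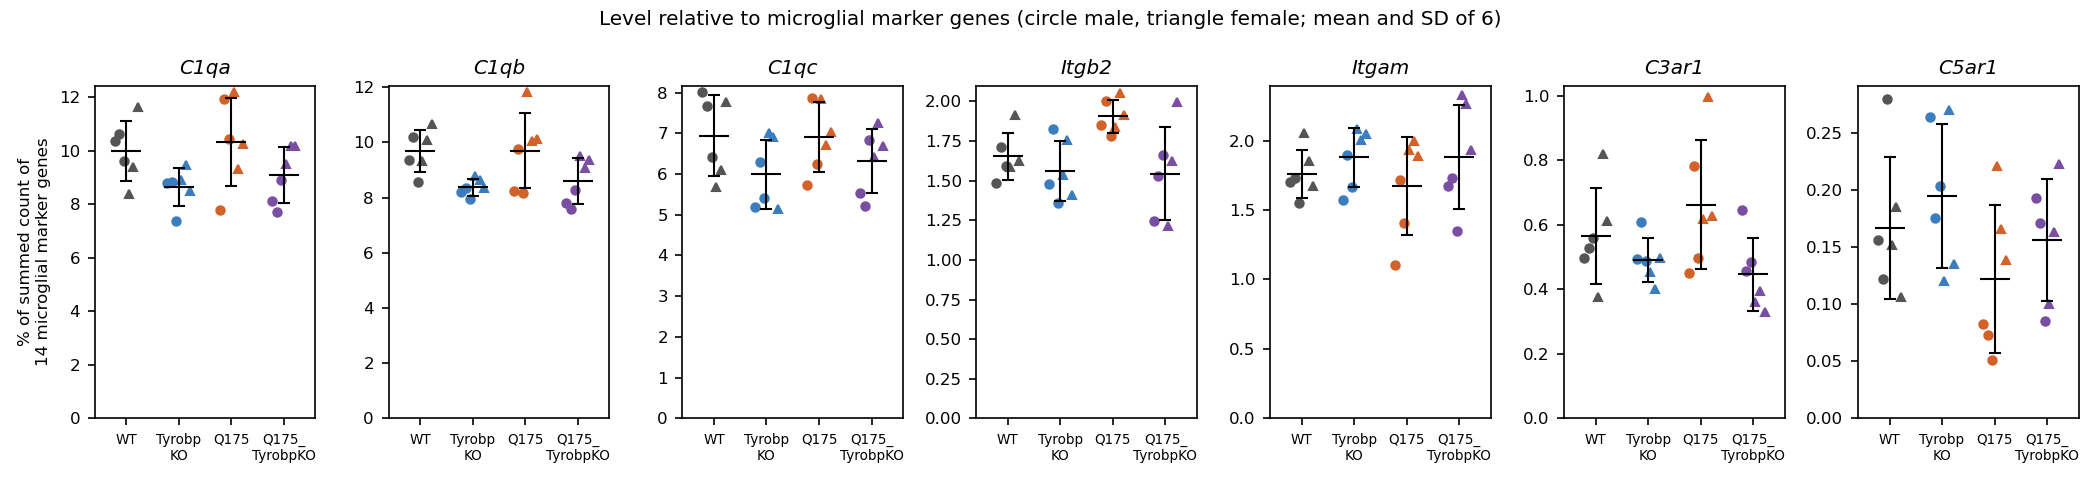
Reads of 7 genes as a percentage of the summed reads of 14 microglial marker genes in the same library (vertical axes from 0), by genotype; circles are males, triangles are females, bars give the mean and SD of 6 libraries. C1qb in TyrobpKO spans 7.94% to 8.77%, and Itgb2 in Q175 spans 1.78% to 2.06%. No difference passed after adjustment over 28 tests, where a single difference could not pass alone.

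The other genes of the pathway were taken from a list of 44, of which 30 had enough reads to be tested. The C1 proteases and lectin pathway genes (8 tested) had no call in any genotype contrast. Per length the most abundant of them in WT were Masp1, a lectin pathway protease, at 0.670 CPM per kb and C1ra, a protease of the C1 complex, at 0.477. Among cascade genes (5 tested) Cfp, which encodes properdin, stood highest, at 6.92 CPM per kb in WT. C4a was the 1 gene called among them and fell in Q175 against WT by 0.72 (SE 0.18, edgeR adjusted p = 0.00778), from 3.70 ± 0.66 CPM (SD, n = 6) to 2.24 ± 0.65. It fell by 0.99 in Q175_TyrobpKO against TyrobpKO (edgeR adjusted p = 0.000814) and by 1.02 in Q175_TyrobpKO against WT (edgeR adjusted p = 0.000309). In Q175 the fold change of C4b had the opposite sign, and the division of reads between the pair is uncertain.

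Of 13 regulators tested, most of which shield host cells, 1 was called in Q175 against WT, where 9.63% of all genes were called, 3 in Q175_TyrobpKO against TyrobpKO (5.86% of all genes) and 4 in Q175_TyrobpKO against WT (9.44%). Cd46, a membrane cofactor that inactivates C3 and C4 fragments, fell by 0.33 in Q175 against WT (SE 0.09, edgeR adjusted p = 0.0135) and by 0.40 in Q175_TyrobpKO against TyrobpKO (edgeR adjusted p = 0.00398). Cd59a, an inhibitor of the membrane attack complex, fell by 0.98 in Q175_TyrobpKO against TyrobpKO (edgeR adjusted p = 0.0308), from 15.1 ± 4.77 to 7.67 ± 2.65 CPM (SD, n = 6), a call that was lost without any of 6 single libraries (TyrobpKO and Q175_TyrobpKO replicates 1, 3 and 5) and without the filter on low counts (adjusted p = 0.0652). Clu, a soluble inhibitor of that complex and the gene of the list with the highest level per length (198.5 CPM per kb in WT), fell by 0.28 there (edgeR adjusted p = 0.00800). In Q175_TyrobpKO against WT, 3 regulators were called lower: Cd59a (log2 fold change -0.97, edgeR adjusted p = 0.0222, lost without WT replicates 3 or 4 or Q175_TyrobpKO replicate 5), Clu (-0.23, 0.0183, lost without WT replicate 3 or Q175_TyrobpKO replicate 5) and Cd59b (-0.61, 0.0341, lost without any of 6 libraries, WT replicates 3 and 4 and Q175_TyrobpKO replicates 1, 2, 4 and 6). Marker sums of astrocytes and projection neurons were lower with the Q175 allele too, and their part in these values was not tested. Other sums went either way, and that of reactive astrocytes had a mean of 278.6 CPM in Q175 and 192.3 CPM in WT. The summed level of 10 astrocyte markers was 3625 to 4257 CPM in Q175 and 4484 to 4974 in WT, and 3833 to 4237 CPM in Q175_TyrobpKO and 4667 to 5128 in TyrobpKO, so neither pair of groups overlapped. Of these 10 markers, 2 were called lower and 1 higher in Q175 against WT (median log2 fold change -0.09). In Q175_TyrobpKO against TyrobpKO 3 were called lower (median -0.19). The mean summed level of the 10 projection neuron markers was 5313 CPM in Q175 and 9589 CPM in WT, with 9 of 10 called lower, and 5089 CPM in Q175_TyrobpKO and 7907 CPM in TyrobpKO, with 5 of 10 called lower. Reads of Cd59a and Cd59b may have been divided between these similar genes. Susd4, a regulator expressed by neurons, was called higher by 0.30 in Q175_TyrobpKO against WT (edgeR adjusted p = 0.0145). In the mean effect of Q175 over both Tyrobp genotypes, a contrast added after the values were seen, 5 of 13 regulators (Cd46, Cd55, Cd59a, Clu and Csmd1) and 2 of 5 cascade genes (C4a and Cfp) were called lower, beside 9.17% of all genes called lower. The calls of Cfp and Csmd1 lay near the threshold and were lost without any of 9 and 18 single libraries (edgeR adjusted p up to 0.0717 and 0.103). None of the 10 members was called in it, where edgeR called 18.0% of all genes.

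Itgax, the alpha chain of the other complement receptor that uses Itgb2, had the greatest log2 fold change of the list both for Q175 against WT and for Q175_TyrobpKO against Q175. It had 0.443 ± 0.153 CPM (SD, n = 6) in WT and 2.06 ± 0.757 in Q175, a log2 fold change of 2.18 ± 0.54 (SE, edgeR adjusted p = 0.00923). In Q175_TyrobpKO it had 0.270 ± 0.215 CPM and fell by 2.94 against Q175 (edgeR adjusted p = 0.0185). The second call was lost without the filter on low counts (edgeR adjusted p = 0.0693) and without any of 4 single libraries, Q175 replicates 2 and 6 and Q175_TyrobpKO replicates 1 and 5. The Q175_TyrobpKO libraries ran from 0 to 0.499 CPM and the Q175 libraries from 0.852 to 2.94 CPM, so these groups did not overlap, as held for 0.463% of all genes and for none of the members. None of the 30 other complement genes was called in TyrobpKO against WT by edgeR.

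**Figure D4:**
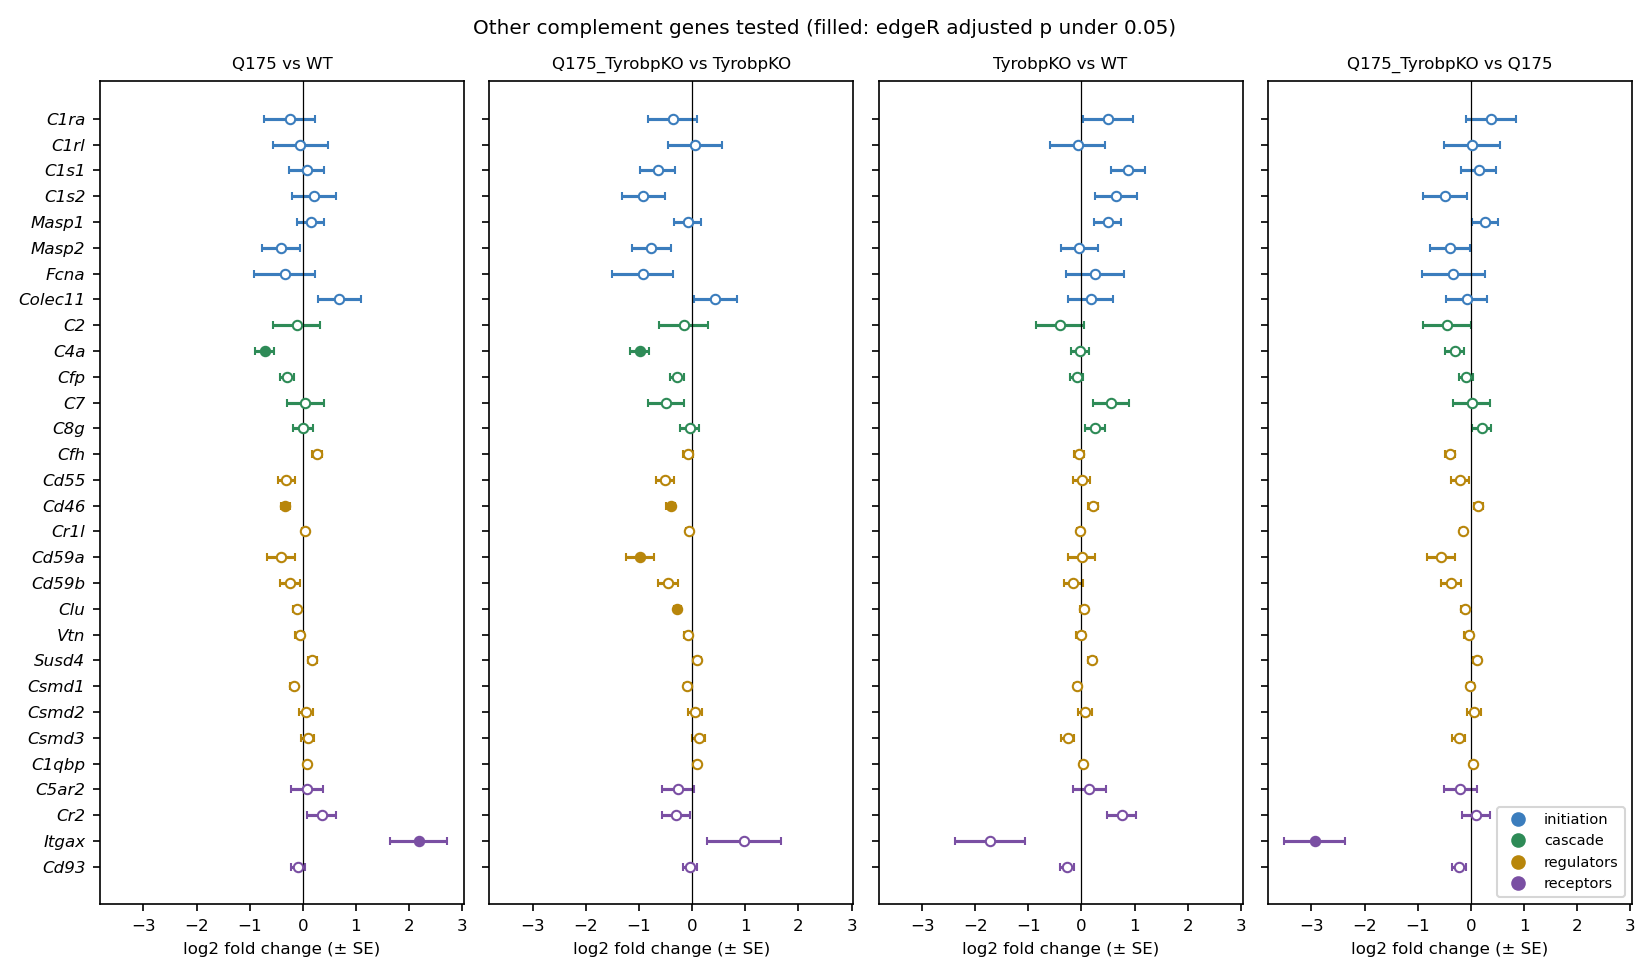
Log2 fold change with its SE (horizontal axis, edgeR) of the 30 other complement genes tested, coloured by role, in 4 genotype contrasts; filled points have an adjusted p under 0.05. In the 2 panels for Q175 the filled points left of 0 are C4a and the regulators Cd46, Cd59a and Clu, and Itgax is filled on the right in Q175 against WT and on the left in Q175_TyrobpKO against Q175.

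The members also differed in how they varied between animals of the same genotype and sex. After the mean of each genotype and sex was removed from log2 CPM, 3 of 45 pairs of members passed over the 24 libraries by both Pearson's r and Spearman's rho, and these were the pairs within C1q. C1qa and C1qb had r = 0.87 and rho = 0.86 (permutation p = 6e-05 and 0.0001, adjusted 0.0009 and 0.00225), with r = 0.83 without the 2 libraries farthest from the median. For C1qa and C1qc the values were r = 0.84 and rho = 0.83 (permutation p = 5e-05 and 4e-05, adjusted 0.0009 and 0.0018), and r = 0.78 without 2 libraries. C1qb and C1qc had r = 0.81 and rho = 0.79 (permutation p = 5e-05 and 0.00017, adjusted 0.0009 and 0.00255), and r = 0.72 without 2 libraries. The CR3 chains Itgam and Itgb2 had r = 0.14 (permutation p = 0.527, adjusted 0.715), and C3 had an r of -0.12 to 0.01 with the C1q genes. The next pair, Itgb2 and Serping1, had r = 0.64 and did not pass (permutation p = 0.0143, adjusted 0.129). Genes in a library share its depth and scaling, and 38 of the 45 values were positive. Each C1q gene had a higher r with a gene outside the list than with the other C1q genes, up to 0.93 for C1qb and Tmbim6. Values of this size were thus not particular to the C1q pairs, and their share over all gene pairs was not counted.

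**Figure D5:**
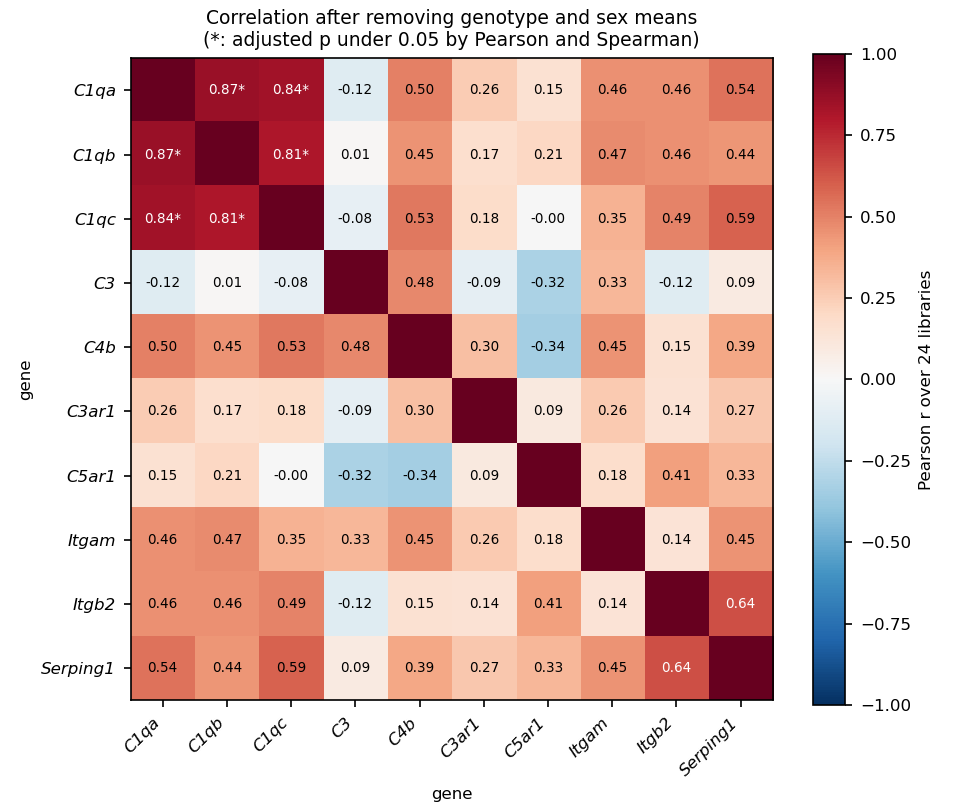
Pearson's r between the 10 genes over 24 libraries after the means of genotype and sex were removed from log2 CPM, with colour from -1 to 1; asterisks mark pairs with an adjusted permutation p under 0.05 by Pearson and Spearman. The 3 marked pairs are C1qa, C1qb and C1qc with each other, at 0.81 to 0.87.

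The genes outside the list that were most like each member by the same measure are given as a description, since they are the highest of all tested genes. C1qa was closest to Gm10282 (r = 0.91), Apoe (0.91), a lipid carrier, and Cst3 (0.89), a secreted protease inhibitor abundant in microglia and astrocytes. C1qb was closest to Tmbim6 (r = 0.93), Cst3 (0.88) and the ribosomal gene Rpl10 (0.87), and C1qc to Gamt, Trmt2a and Tmbim6 (0.85 each). For C3 the closest gene was the integrin chain Itgax (r = 0.83), and for C4b the 3 closest were Tmem198b (0.85), AU020206 (0.85) and the interferon-induced gene Ifit3 (0.83). The closest gene of each other member had an r of 0.80 to 0.84: Wnt3 for C3ar1, Rbm17 for C5ar1, Cyp4v3 for Itgam, Magohb for Itgb2 and Rhpn1 for Serping1.

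Itgam was the member that passed the test between the sexes. Over the 4 genotypes it rose in females relative to males by 0.38 on the log2 scale (SE 0.08, edgeR adjusted p = 0.0461), 1 of 10 members, beside 0.0814% of all genes (0.0458% higher in females). In WT the males read 7.47, 7.57 and 7.12 CPM and the females 9.72, 7.56 and 7.91. In TyrobpKO the males read 6.77, 6.56 and 7.27 CPM and the females 9.07, 9.55 and 8.67. Q175 males read 4.65, 8.31 and 6.39 CPM and Q175 females 9.13, 9.32 and 8.94, and Q175_TyrobpKO males read 6.43, 7.24 and 5.33 CPM and females 8.91, 8.57 and 8.50. The sexes did not overlap in TyrobpKO, Q175 and Q175_TyrobpKO, and in WT a female lay among the males. The test used these same values, so the separation is no further support for the call. The share of all genes with such a separation was not counted. The adjusted p lay near the threshold and was over it with RLE size factors (0.0526), without the filter (0.0538) and without any of 19 single libraries (edgeR adjusted p up to 0.133), while the log2 fold change stayed between 0.34 and 0.42. DESeq2 gave an adjusted p of 0.00201. C1qb was next, at 0.23 ± 0.05 (SE, edgeR adjusted p = 0.217).

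No member's response to genotype was shown to differ between the sexes, and no gene passed either interaction with sex in edgeR. C3 had the greatest value, an interaction of 2.43 ± 0.71 (SE, edgeR adjusted p = 0.645) in Q175_TyrobpKO against Q175. Its male libraries read 1.59, 2.72 and 3.29 CPM in Q175 and 0.711, 1.64 and 0.863 in Q175_TyrobpKO, and its female libraries read 1.43, 1.47 and 2.24 in Q175 and 5.49, 2.25 and 4.03 in Q175_TyrobpKO. The female Q175_TyrobpKO libraries were thus all above the female Q175 libraries. For C3ar1 the interaction in that contrast was -0.95 ± 0.37 (SE, edgeR adjusted p = 0.681), with females at 2.93, 4.64 and 2.97 CPM in Q175 and 1.38, 1.49 and 1.45 in Q175_TyrobpKO, and males at 1.90, 3.78 and 2.26 against 2.49, 1.91 and 1.91. For C5ar1 the interaction in Q175 against WT was 1.74 ± 0.67 (SE, edgeR adjusted p = 0.9997), with Q175 males at 0.349, 0.354 and 0.233 CPM, below all other Q175 and WT libraries. With 3 animals of a sex in each genotype, these values are descriptions.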

How the data were processed

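Per the labels' protocols, RNA came from the striatum of a hemisphere, 1 library per mouse. The authors deposited raw counts of reads per gene, together with gene lengths. The submitters' processing notes list STAR, featureCounts and DESeq2 without versions, and the build GRCh38, which is human. Of the table's 54532 mouse gene identifiers, 54409 were in GENCODE M21 (GRCm38), and 53499 of those (98.3%) had the same start and end. Whether counting used strand is not given in the sources used here. Counts were fitted with edgeR 4.0.16 (R 4.3.3): TMM, filterByExpr on genotype, a robust quasi-likelihood fit of all 24 libraries, genotype means and a sex term. The adjustment was by Benjamini-Hochberg over 19667 genes, calls were made under 0.05, and intervals of 95% used 19 residual degrees of freedom. The biological coefficient of variation amounted to 16.2%. For the interactions with sex, each genotype and sex had its own mean. Ratios were tested by 2-sided exact permutation, and correlations by 100000 permutations within genotype and sex (SciPy 1.17.1). The alternatives were DESeq2 1.42.0, RLE size factors, no filter, no sex term, only the 12 libraries compared, 5 core microglia genes in the ratio and leaving out each library. The scripts were tested on simulated data.

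The members, gene lists and tests were chosen with earlier results of these data known. The rule for named genes took all members, other complement genes called in a genotype contrast and the 2 most abundant of each role, Tyrobp and Htt, the 3 genes most like each member, and from each marker list the gene of smallest p. Genes named outside it (Cd55, Csmd1, S100a9 and the markers called or at 0) were chosen after their values were seen. The 60 pairs of libraries of a genotype differed by a chi-square of 6.89 to 42.6 per gene, so all counted separately. The labels do not say how the animals were bred, and p-values measure the spread between these animals. The limit set by a count of 0 is 3 counts, for counting error only.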

Additional observations from a re-analysis of the deposited data

Results flagged for a closer look

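In each of the 40 groups of 6 libraries (10 genes in 4 genotypes), the highest or lowest library was compared with the others by Dixon's test, for which chance alone marks about 1 group in 20. There were 4 groups with a library far from the rest. TyrobpKO replicate 4 had 105.6 CPM of C4b, against 61.9 CPM in the next library. WT replicate 3 had 1.28 CPM of C5ar1, against 0.756 CPM in the next. WT replicate 4 had 9.72 CPM of Itgam, against 7.91 CPM in the next. TyrobpKO replicate 5 had 8.37 CPM of Itgb2, against 6.68 CPM in the next, and it was also the highest TyrobpKO library for 6 other members.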

How the results depend on the processing

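Low read numbers limit C5ar1 and C3, and a log2 value near 0 changes sign easily. Alternatives for the averaged contrasts and for the interactions with sex were added after the values had been seen. No paired analysis was possible because the labels give no replicate numbers shared between genotypes.

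DESeq2 called 52 genes and 3 members in Q175_TyrobpKO against Q175, 2 genes in the interaction of the alleles, 84 genes and 5 members in the mean effect of the deletion, and 3 genes in the interaction of sex with Q175_TyrobpKO against Q175. In Q175_TyrobpKO against Q175, 0 members were called without the sex term and 0 with only the 12 libraries, and 2 members were called in Q175_TyrobpKO against WT with only the 12 libraries. For females against males, 0 members were called with RLE size factors and 0 without the filter. The log2 value of Serping1 in TyrobpKO against WT was -0.00032 with RLE size factors and -0.0012 with DESeq2, and that of C3 in Q175 against WT was -0.00051 with only the 12 libraries. With 5 core microglia genes in the ratio, the values of C1qb and C1qc in Q175 against WT were 0.010 and 0.014.

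Leaving out single libraries gave 0 to 3 members called in Q175_TyrobpKO against Q175, 1 to 3 in Q175_TyrobpKO against WT, 1 to 2 in the mean effect of the deletion and 0 to 1 for females against males. It gave 0 to 2 genes in the interaction of the alleles and 0 to 1 in that of sex with Q175_TyrobpKO against Q175. These log2 fold changes changed sign. In Q175 against WT they ran from -0.0046 to 0.091 for C1qb, -0.044 to 0.099 for C1qc, -0.20 to 0.16 for C3 and -0.11 to 0.054 for Itgam. In TyrobpKO against WT they ran from -0.48 to 0.093 for C3, -0.053 to 0.027 for Itgam and -0.14 to 0.13 for Serping1. In Q175_TyrobpKO against Q175 they ran from -0.22 to 0.33 for C3 and -0.14 to 0.020 for Itgam. In Q175_TyrobpKO against TyrobpKO they ran from -0.069 to 0.046 for C1qa, -0.053 to 0.073 for C1qc, -0.15 to 0.67 for C3 and -0.030 to 0.25 for C4b. In Q175_TyrobpKO against WT they ran from -0.19 to 0.35 for C3 and -0.38 to 0.027 for C5ar1. The interaction of the alleles ran from -0.11 to 0.035 for C1qc, and the mean effect of the deletion from -0.16 to 0.14 for C3 and -0.068 to 0.011 for Itgam. The interaction of sex with Q175 against WT ran from -0.44 to 0.049 for C3 and -0.032 to 0.57 for C3ar1. Relative to microglial markers, Q175 against WT ran from -0.016 to 0.11 for C1qa, -0.067 to 0.040 for C1qb, -0.059 to 0.049 for C1qc and -0.16 to 0.017 for Itgam, and Q175_TyrobpKO against TyrobpKO from -0.083 to 0.075 for Itgam and -0.11 to 0.038 for Itgb2. None of these values had passed its test, and the cause was not tested.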
